A study of Rattus norvegicus with 30 samples.

Results

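The lung transcriptome of rats with severe acute pancreatitis was compared between animals that had received 1 dose of emodin (Emo-6h) and animals that had received the vehicle alone (SAP-6h), both 6 hours after the operation. The comparison comprised the 6 libraries that the labels place in these groups, 3 each, out of 30 libraries in 10 groups. By the study's methods, the lungs of 3 of the 6 rats of each group were sequenced, and each library is taken as 1 rat. All were lungs of male 8-week-old Sprague Dawley rats, and the animals of both groups had 5.0% sodium taurocholate, a bile salt, infused backwards into the biliopancreatic duct. Emodin was given into the stomach at 2 hours, so that the lungs were taken 4 hours after the single dose. The labels give that dose as 10 mg/kg in the description and as 40 mg/kg in the protocol. SAP-6h rats were gavaged with 0.5% carboxymethylcellulose sodium in the same volume, and both groups received intravenous saline in place of dexamethasone. Sham-6h rats, in which the pancreas was only moved, and DEX-6h rats, which had the taurocholate infusion and 10 mg/kg of intravenous dexamethasone, were used for reference. The lungs were flushed with saline through the pulmonary artery before they were taken, and each library holds the RNA of whole lung tissue.

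Emodin is an anthraquinone found in rhubarb root. In severe acute pancreatitis, digestive enzymes and inflammatory mediators released by the injured pancreas reach the lung through the blood, where the capillary endothelium and the alveolar epithelium become leaky and leucocytes gather. NF-kB is a family of transcription factors that switches on cytokine, chemokine and adhesion genes in this setting. Some aromatic compounds are sensed by the aryl hydrocarbon receptor, which drives Cyp1a1.

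The 6 libraries held between 16813949 (SAP-6h replicate 3) and 34692306 (SAP-6h replicate 2) reads on genes, and those of Emo-6h held 27378428 to 30368850. Defining lung genes were present in every library: Sftpc, the surfactant protein of alveolar type 2 cells, ranged from 18846 to 26726 FPKM (fragments scaled to transcript length and to the mapped total), and Ager, a marker of alveolar type 1 cells, from 825.3 to 1692 FPKM. Emo-6h replicate 3 stood apart. In it, 450 of 12474 genes lay more than 2-fold above the mean of the other Emo-6h libraries, against 77 to 205 genes in each of the other 5 libraries relative to their own group, and 153 of the 450 lay more than 4-fold above. Emo-6h replicate 2 correlated more closely with the SAP-6h libraries (mean r over genes 0.9753) than with its own group (0.9724), and SAP-6h replicate 1 more closely with Emo-6h (0.9738) than with its own (0.9719). SAP-6h replicate 1 had 287 genes more than 2-fold below its group, as had Emo-6h replicate 3. Results that rest on Emo-6h replicate 3 are given with and without it.

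Emodin moved few genes far enough to be told apart from the spread between rats. Of 15934 genes tested, 0 were up-regulated in Emo-6h vs SAP-6h (percent called 0) and 4 were down-regulated (0.0251%) at an adjusted p-value under 0.05 (edgeR, Benjamini-Hochberg) and a change of at least 2-fold. At an unadjusted p under 0.05 without a limit on the fold, 1209 genes were higher (7.59%) and 937 were lower (5.88%), and DESeq2 called 3 genes higher and 5 lower, none of them among the 4. The scaling centres the bulk of genes near 0, so fold changes are relative to it. The median over all genes was -0.0048, with quartiles of -0.23 and 0.21, and 49.4% of genes had a value above 0. The tails were uneven. A log2 fold change of 1 or more was found for 358 genes and one of -1 or less for 648. Among genes at an unadjusted p under 0.05 the median was 0.40 for those that were higher and -0.59 for those that were lower. For genes with a mean of at least 1 FPKM, the counts were 179 and 228, and these medians were 0.39 and -0.49. The median standard error of a log2 fold change was 0.22. In whole lung, a lower level of a gene in each cell and fewer cells that express it cannot be told apart, which holds for all values below. The count of up-regulated DEGs was 1 without Emo-6h replicate 1 and without SAP-6h replicate 1, and 2 without Emo-6h replicate 2. The count of down-regulated DEGs was 0 without Emo-6h replicate 1 or replicate 3, 1 without SAP-6h replicate 2, and 6 without Emo-6h replicate 2.

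**Figure D1:**
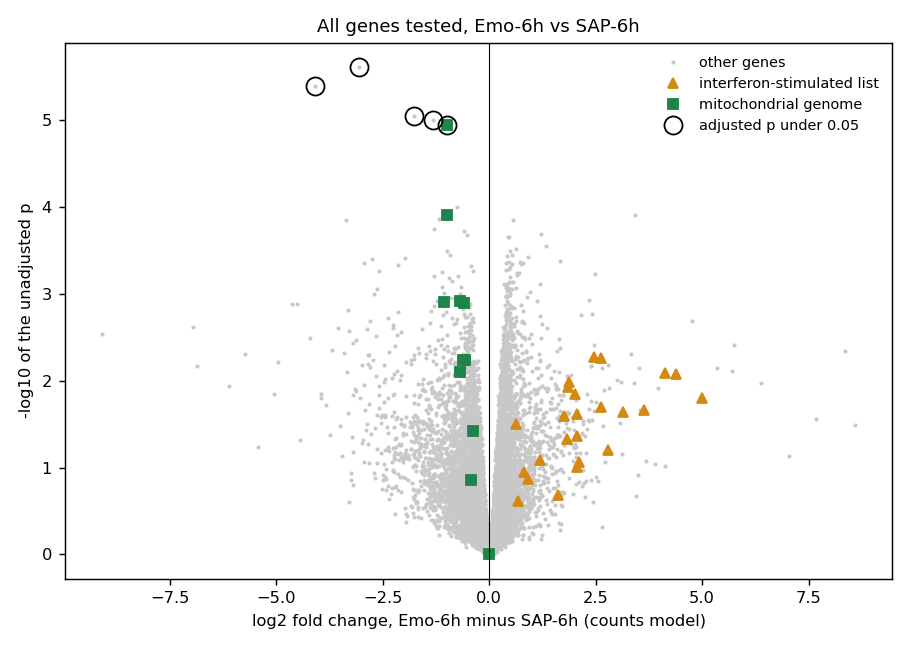
Each point is 1 of 15934 genes, placed by its log2 fold change in Emo-6h minus SAP-6h (x axis) and by the -log10 of its unadjusted p from the edgeR model (y axis). The 5 circled genes with an adjusted p under 0.05 all lie on the left, 10 of the 11 mitochondrial genes (green squares) lie left of 0, and the 24 interferon-stimulated genes (orange triangles) lie right of 0 at moderate p-values.

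The largest of the 4 down-regulated DEGs in level was AABR07027451.1, an uncharacterized protein-coding gene on chromosome 17. It measured 6.31, 7.5 and 11.9 FPKM in the Emo-6h rats and 152, 41.6 and 240 FPKM in the SAP-6h rats, with 25.3 to 39.6 FPKM in Sham-6h. The groups did not overlap, and the Emo-6h libraries lay below Sham-6h as well. Its log2 fold change was -4.09 ± 0.69 (SE, adjusted p = 0.0327). AABR07032348.2, a lincRNA gene on chromosome 18, measured 0.17, 0.44 and 0.13 FPKM in Emo-6h and 2.22, 2.11 and 1.81 FPKM in SAP-6h, which were 10 to 36 and 83 to 201 reads. SAP-6h and Sham-6h (1.17 to 2.39 FPKM) lay in the same range and only the emodin rats were low. The log2 fold change was -3.06 ± 0.50 (adjusted p = 0.0327).

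Ly6g6c, a member of the Ly6 and uPAR family of cell-surface proteins, encoded on chromosome 20, measured 1.31, 1.79 and 1.02 FPKM in Emo-6h and 3.03, 5.43 and 5.71 FPKM in SAP-6h. Sham-6h rats had 1.68 to 1.98 FPKM, so that SAP-6h was the high group (SAP-6h vs Sham-6h log2 fold change 1.42, adjusted p = 0.0482) and Emo-6h lay close to Sham-6h. The log2 fold change of emodin was -1.78 ± 0.32 (adjusted p = 0.0361), from 13 to 24 reads in Emo-6h and 37 to 85 in SAP-6h. Of the 13 members of this family that were tested, 2 were lower and 2 were higher at an unadjusted p under 0.05, beside 5.88% and 7.59% of all genes, and their median log2 fold change was -0.16.

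The last DEG was the row of Rpl32, a protein of the large ribosomal subunit, that lies on chromosome 6. It measured 6.16, 5.8 and 5.71 FPKM in Emo-6h and 14.8, 18.9 and 10.1 FPKM in SAP-6h, with a log2 fold change of -1.32 ± 0.24 (adjusted p = 0.0361). The files hold a second row of the same symbol on chromosome 4 with 1237 FPKM in Emo-6h and 1338 in SAP-6h, whose log2 fold change was -0.12 ± 0.12 (adjusted p = 0.676). Multi-mapped reads were discarded, and reads of near-identical copies may have been lost or placed on either row, so the value of the chromosome 6 row is uncertain. Rps4x behaved alike in the values, with 6.7, 7.23 and 7 FPKM against 11.7, 14.5 and 9.12 FPKM (log2 fold change -0.77, adjusted p = 0.190, from 0.0398 without SAP-6h replicate 3 to 0.715 without SAP-6h replicate 2). The row the files give for this symbol lies on chromosome 4, and it is uncertain for the same reason. Among the 70 cytosolic ribosomal protein genes as a whole, 10 were lower and 1 was higher at an unadjusted p under 0.05, beside 5.88% and 7.59% of all genes, 17 had a positive value, and the median log2 fold change was -0.13. The median was -0.0078 with 32 positive without SAP-6h replicate 1, -0.071 without Emo-6h replicate 2, -0.081 without SAP-6h replicate 2 and -0.22 without SAP-6h replicate 3. The lower count was 20 without SAP-6h replicate 3, the shallowest library, 2 without SAP-6h replicate 2, 3 without SAP-6h replicate 1 and 5 without Emo-6h replicate 2.

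The 4 calls were sensitive to the fit. Over 14 alternatives each kept its direction, and AABR07027451.1, AABR07032348.2 and Ly6g6c lost the call in 8 of them and Rpl32 in 9. Their adjusted p ranged from 0.00829 to 0.359, 0.0152 to 0.352, 0.0170 to 0.359 and 0.0129 to 0.359 in that order. Their log2 fold changes ranged from -4.53 to -3.53, -3.73 to -1.30, -1.99 to -1.25 and -1.53 to -1.12 in the same order.

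**Figure D2:**
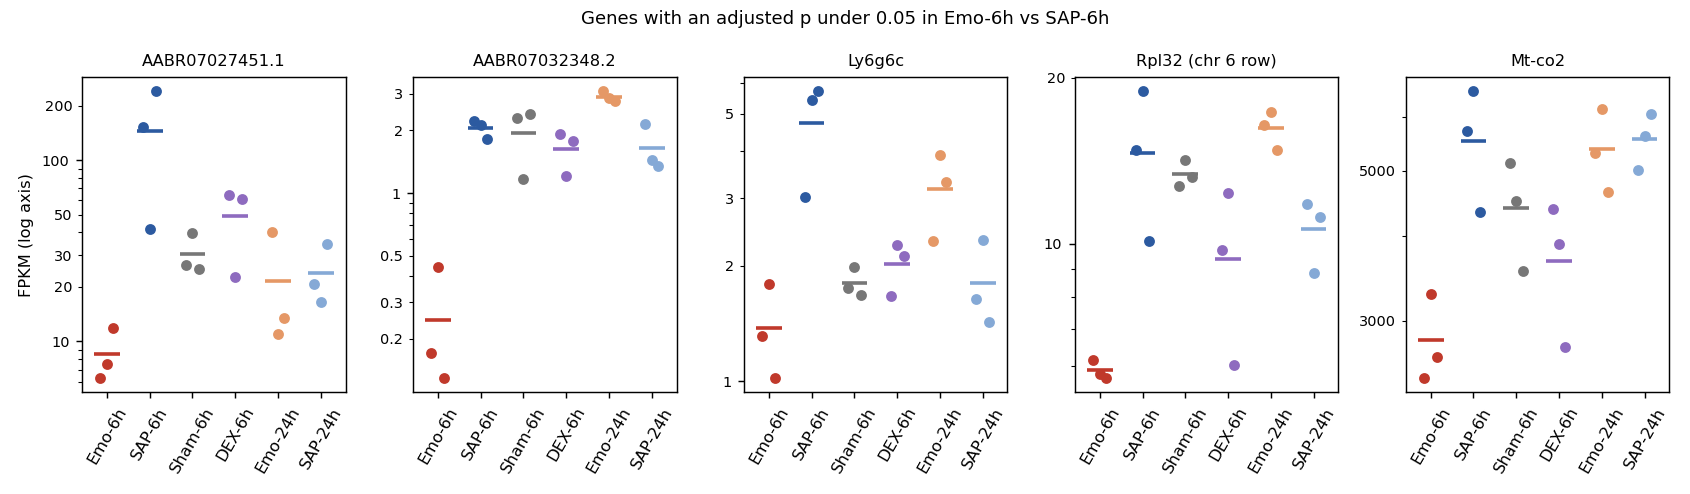
FPKM on a log axis of the 4 down-regulated DEGs and of Mt-co2, with 1 point per rat and a bar at the mean of the 3 rats of Emo-6h, SAP-6h, Sham-6h, DEX-6h, Emo-24h and SAP-24h. In each panel the 3 Emo-6h points lie below the 3 SAP-6h points, and for AABR07032348.2 they lie below the points of the other 5 groups.

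Of 380 annotated lncRNA genes tested, 37 were lower and 1 was higher in Emo-6h at an unadjusted p under 0.05, beside 5.88% and 7.59% of all genes, and 255 had a negative value. Their median log2 fold change was -0.22, against -0.0015 for the 15554 genes of the mRNA class. By library, the median relative to the SAP-6h mean was -0.22, -0.10 and -0.26 in Emo-6h and 0.08, 0.09 and -0.15 in SAP-6h, so the groups overlapped, with SAP-6h replicate 3, the shallowest library, beside the emodin rats. After AABR07032348.2, the smallest p-values belonged to AABR07057683.1 on chromosome 7 and AABR07049695.3 on chromosome 5. AABR07057683.1 measured 5.16, 5.43 and 5.72 FPKM in Emo-6h and 11.7, 12.5 and 8.16 in SAP-6h (adjusted p = 0.190), and AABR07049695.3 measured 0.24, 0.22 and 0.17 FPKM against 0.48, 0.63 and 0.44 (adjusted p = 0.196).

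The transcripts of the mitochondrial genome lay lower in Emo-6h across nearly the whole family. The mitochondrial chromosome encodes subunits of the respiratory chain and of ATP synthase, and its genes are transcribed together as long precursors, so their values are not independent. Mt-co2, a subunit of cytochrome c oxidase, measured 2473, 3290 and 2658 FPKM in Emo-6h and 5718, 6552 and 4344 FPKM in SAP-6h. The groups did not overlap, and the log2 fold change of -0.99 ± 0.18 (adjusted p = 0.0361) passed the test but fell just short of the 2-fold limit. Mt-nd4, a subunit of complex I, measured 822, 981 and 652 FPKM against 1691, 1809 and 1310, again without overlap (log2 fold change -0.98 ± 0.22, adjusted p = 0.190, 0.0147 with DESeq2 and up to 0.715 over the alternatives). The call of Mt-co2 was lost in 9 of 14 alternatives, with an adjusted p of 0.000167 to 0.359. Mt-co1, the most abundant of them, measured 6128, 8188 and 4912 FPKM against 9599, 9675 and 9613. For Mt-nd3 the values were 1027, 1166 and 966 FPKM in Emo-6h and 1861, 2198 and 988.3 FPKM in SAP-6h, and only SAP-6h replicate 3 came near the emodin rats (log2 fold change -0.69 ± 0.19, adjusted p = 0.203, from 0.0112 without that library to 0.715 without SAP-6h replicate 2).

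Of the 11 mitochondrial genes tested, 9 were lower (5.88% of all genes) and 0 were higher (7.59%) at an unadjusted p under 0.05, and for 6 all Emo-6h libraries lay below all SAP-6h libraries, which held for 6.48% of all genes. The exception was Mt-nd6, which is transcribed from the opposite strand to the others and measured 285, 417 and 171 FPKM in Emo-6h and 241, 283 and 338 in SAP-6h. The median log2 fold change was -0.62, and it stayed between -0.82 and -0.53 when each library was left out in turn, with 7 to 10 genes lower at an unadjusted p under 0.05. The mitochondrial chromosome took 3.44%, 4.15% and 2.78% of the reads in Emo-6h, 5.71%, 5.48% and 4.65% in SAP-6h, and 5.28%, 4.61% and 4.01% in Sham-6h. In Con-6h, the control rats given saline in place of taurocholate, the share was 3.32%, 4.02% and 3.93%, which overlaps Emo-6h. In DEX-6h it was 4.98%, 4.43% and 3.60%, which overlaps both Emo-6h and SAP-6h. The median of the mitochondrial genes in DEX-6h vs SAP-6h, which uses the same SAP-6h rats, was -0.36. Heart muscle genes, which mark a tissue rich in mitochondria, summed to 49.95, 155 and 18.1 FPKM in Emo-6h and to 8.34, 204 and 198 FPKM in SAP-6h. The part of heart muscle in the mitochondrial values was not tested. Of 25 nuclear genes of oxidative phosphorylation tested, 2 were higher (7.59% of all genes) and 0 were lower (5.88%) at an unadjusted p under 0.05, 6 had all Emo-6h libraries above all SAP-6h libraries (11.4%), and the median log2 fold change was 0.05, between 0.02 and 0.07 with each library left out. The counts of higher and lower genes were 4 and 0 without Emo-6h replicate 2, and 2 and 3 without SAP-6h replicate 3. The difference between the mitochondrial and the nuclear genes was not tested.

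**Figure D3:**
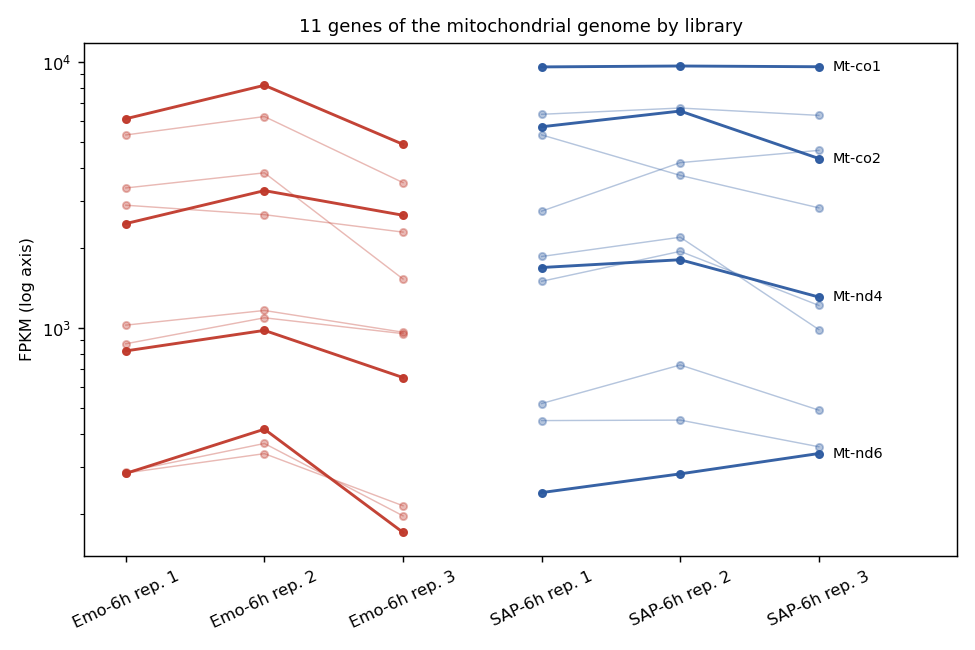
FPKM on a log axis of the 11 genes of the mitochondrial genome in each of the 6 libraries, where each line joins the values of 1 gene within a group. The values of Mt-co1, Mt-co2 and Mt-nd4 in the Emo-6h rats (red) lie below those in the SAP-6h rats (blue), and Mt-nd6 overlaps.

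Smooth muscle genes were higher in FPKM in all 3 emodin rats than in SAP-6h for Acta2, Tagln and Actg2, without passing the test. Smooth muscle actin and its partners form the contractile apparatus of airway and vessel walls. Acta2, the smooth muscle alpha actin, measured 258, 213 and 186 FPKM in Emo-6h and 122, 145 and 128 FPKM in SAP-6h (log2 fold change 0.73 ± 0.28, adjusted p = 0.274). Tagln, an actin-binding protein of smooth muscle, measured 534, 396 and 419 FPKM against 281, 296 and 229 (0.73 ± 0.24, adjusted p = 0.230). Actg2, the enteric smooth muscle actin, measured 95.3, 56.7 and 97.7 FPKM against 33.2, 35.6 and 29.4, and Sham-6h rats had 46.6 to 57.9 (1.34 ± 0.32, adjusted p = 0.199, from 0.0223 with DESeq2 to 0.715 over the alternatives). For these 3 genes the groups did not overlap. Pdgfrb, the growth factor receptor of pericytes, measured 20.7, 18.7 and 12.3 FPKM against 11.7, 11 and 13.1, where the third emodin rat lay within SAP-6h (0.52 ± 0.17, adjusted p = 0.230).

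Of 12 fibroblast and smooth muscle genes tested, 5 were higher (7.59% of all genes) and 0 were lower (5.88%) at an unadjusted p under 0.05, and 5 had all Emo-6h libraries above all SAP-6h libraries, which held for 11.4% of all genes. The median log2 fold change was 0.37, between 0.29 and 0.47 with each library left out in turn, while the count of 5 was 2 without Emo-6h replicate 1 and 3 without SAP-6h replicate 1. Without SAP-6h replicate 1, 2 were lower, and without Emo-6h replicate 2, 1 was. The fibroblast genes Dcn and Lum went against the rest, at -0.90 and -0.76, and the list's upper values belonged to smooth muscle genes. Of 16 collagen and matrix genes, 15 had a positive value, 5 did not overlap and 1, Col6a1, had an unadjusted p under 0.05 (7.59% of all genes), with a median of 0.32 (0.24 to 0.41 with each library left out). Their sum was 4759, 4853 and 3937 FPKM in Emo-6h and 3079, 4010 and 4204 in SAP-6h, and overlapped. The count of 1 collagen or matrix gene was 0 without Emo-6h replicate 1, SAP-6h replicate 1 or SAP-6h replicate 2. It was 2 without Emo-6h replicate 3 or SAP-6h replicate 3, and 4 with only the libraries of the groups compared. Col6a1, a chain of type VI collagen, measured 134, 124 and 115 FPKM in Emo-6h and 77.4, 81.7 and 96.4 in SAP-6h. Eln, which encodes elastin, measured 418, 464 and 365 FPKM against 122, 268 and 274. None of these genes passed the test over all genes.

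Kdr and Tbx2, which were down-regulated in SAP-6h vs Sham-6h, had intermediate means in Emo-6h. Kdr, the main endothelial receptor of vascular endothelial growth factor, measured 27.7, 31.4 and 22.5 FPKM in Emo-6h, 15.02, 17.97 and 15.5 in SAP-6h and 47.6, 39.3 and 29.03 in Sham-6h. All Emo-6h libraries lay above all SAP-6h libraries and below the Sham-6h libraries apart from an overlap with the lowest of these (Emo-6h vs SAP-6h 0.74 ± 0.23, adjusted p = 0.226; SAP-6h vs Sham-6h -1.21, adjusted p = 0.0246). Tbx2, a transcription factor of lung mesenchyme, measured 63.8, 77.3 and 36.8 FPKM in Emo-6h, 35.2, 28.01 and 36.1 in SAP-6h and 62.6 to 83.6 in Sham-6h. The first and second emodin rats reached the Sham-6h range and the third did not (0.82 ± 0.24, adjusted p = 0.217; SAP-6h vs Sham-6h -1.13, adjusted p = 0.0427). Of 11 endothelial genes tested, 3 were higher (7.59% of all genes) and 0 lower (5.88%) at an unadjusted p under 0.05 and the median was 0.21. With each library left out it ranged from 0.11 without Emo-6h replicate 2 to 0.40 without Emo-6h replicate 3, with 0.12 without Emo-6h replicate 1 and 0.13 without SAP-6h replicate 3, and the count of 3 was 1 without SAP-6h replicate 1 and 2 without any other library. Without Emo-6h replicate 1, 1 was lower. Both comparisons use the same SAP-6h rats, so their values are given side by side only.

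Genes of water transport and junctions had no common direction. Aqp5, the water channel of alveolar type 1 cells, measured 97.7, 143 and 127 FPKM in Emo-6h and 65.8, 47.8 and 98.6 in SAP-6h (0.78, 95% interval -0.23 to 1.79, adjusted p = 0.493). Aqp1, the endothelial water channel, measured 477, 314 and 164 FPKM against 398, 391 and 454 (-0.39, interval -0.92 to 0.14). Cldn5 and Cldn4, claudins of the endothelial and epithelial tight junctions, had log2 fold changes of -0.0082 (interval -0.39 to 0.37) and -0.18 (interval -0.79 to 0.42). Of 17 junction genes, 1 was higher (7.59% of all genes) and 1 lower (5.88%) at an unadjusted p under 0.05 and the median was 0.04, between -0.04 without SAP-6h replicate 2 and 0.15 without SAP-6h replicate 3. Of 16 aquaporins and ion channels, the counts were 1 and 2, with a median of 0.02, between -0.08 and 0.13 without the same libraries. These counts were 0 and 3 without Emo-6h replicate 1 and 0 and 0 without SAP-6h replicate 2. With only the libraries of the groups compared, they were 4 and 1. Alveolar type 1 markers had a median of 0.21 with 8 of 9 positive (0.04 without SAP-6h replicate 2, 0.05 without Emo-6h replicate 2 and 0.38 without SAP-6h replicate 3), and alveolar type 2 markers one of -0.14 with 3 of 11 positive (-0.25 without Emo-6h replicate 2 and -0.04 without Emo-6h replicate 3), with 0 and 1 of them at an unadjusted p under 0.05.

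Cytokine genes had no common direction. Tnf was listed at 0.06, 0 and 0 FPKM in Emo-6h and at 0 in the 3 SAP-6h rats and was too low to be tested, and Il6 measured 0.15, 0 and 1.03 FPKM against 0.06, 0.02 and 0.05 (log2 fold change 3.12, interval -0.28 to 6.52, adjusted p = 0.416). Il1a, an interleukin-1 ligand, measured 12.3, 11.8 and 7.74 FPKM against 27.1, 17.1 and 20.7, without overlap (-1.05 ± 0.48, adjusted p = 0.345). Csf1, the growth factor of macrophages, measured 16.3, 15.9 and 18.3 FPKM against 10.5, 11.3 and 8.78, also without overlap (0.71 ± 0.24, adjusted p = 0.231). Over the 16 cytokine and receptor genes tested, 1 was higher (7.59% of all genes) and 1 was lower (5.88%) at an unadjusted p under 0.05, and the median was -0.13. It was 0.02 without Emo-6h replicate 3, 0.10 without SAP-6h replicate 1 and 0.01 without SAP-6h replicate 2, and it was -0.02 without Emo-6h replicate 2, -0.21 without Emo-6h replicate 1 and -0.22 without SAP-6h replicate 3.

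Of 18 genes of the NF-kB pathway, 16 had a positive value (49.4% of all genes), 4 were higher (7.59%) and 0 were lower (5.88%) at an unadjusted p under 0.05, and the median was 0.22. Icam1, the endothelial adhesion molecule that binds leucocytes, measured 95.7, 96.3 and 109 FPKM in Emo-6h, 56.7, 54.1 and 83.6 in SAP-6h and 105 to 135 in Sham-6h (Emo-6h vs SAP-6h 0.62 ± 0.26, adjusted p = 0.308). For this gene the emodin rats lay nearer to Sham-6h than SAP-6h did. The list did not share that course, with a median of 0.09 in SAP-6h vs Sham-6h and 0.38 in Emo-6h vs Sham-6h. These comparisons share libraries, so their values are given side by side only. Relb, a subunit of NF-kB, measured 11.2, 7.66 and 10.3 FPKM against 6.71, 6.47 and 6.65 (0.55 ± 0.26, adjusted p = 0.354). Nfkb1, the p105 precursor subunit, measured 26.03, 24.5 and 29.98 FPKM against 21.6, 24.1 and 24.2, a small difference without overlap (0.20 ± 0.093, adjusted p = 0.361). Nfkbib, an inhibitor subunit, measured 28.02, 19.02 and 35.2 FPKM against 21.4, 17.2 and 19.7 and overlapped (0.49, adjusted p = 0.269). Without Emo-6h replicate 3, 14 of the 18 were positive, 0 had an unadjusted p under 0.05, and the median was 0.13, while without Emo-6h replicate 2 the median was 0.42 with 5 higher. The count of 4 was also 0 without SAP-6h replicate 2, 2 with only the libraries of the groups compared, and 2 without Emo-6h replicate 1, SAP-6h replicate 1 or SAP-6h replicate 3.

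Chemokines that draw neutrophils and monocytes were mostly on the high side, with 10 of 11 positive, 2 higher at an unadjusted p under 0.05 and a median of 0.70. Cxcl1, a neutrophil chemokine, measured 20.6, 10.3 and 11.99 FPKM in Emo-6h, 6.27, 4.55 and 4.16 in SAP-6h and 5.38 to 8.87 in Sham-6h, and every emodin rat lay above both other groups (1.50 ± 0.61, adjusted p = 0.296). Ccl7 was high in a single rat, at 0.73, 0.33 and 14.4 FPKM against 0.66, 0.63 and 0.54. The median of the list was 0.28 without Emo-6h replicate 3, and on log2(FPKM + 1), which understates changes of low genes, it was 0.29. The count of 2 of 11, beside 7.59% of all genes, was 0 without SAP-6h replicate 2 or SAP-6h replicate 3, 1 without Emo-6h replicate 1, Emo-6h replicate 3 or SAP-6h replicate 1, and 3 without Emo-6h replicate 2. Neutrophil markers gave a median of -0.15 with 4 of 12 positive and 0 at an unadjusted p under 0.05 in either direction. The median was 0.18 with 8 of 12 positive without Emo-6h replicate 3, 0.03 without SAP-6h replicate 2 and -0.07 without SAP-6h replicate 1. With 2 of 12 positive each, it was -0.28 without SAP-6h replicate 3, -0.27 without Emo-6h replicate 2 and -0.26 without Emo-6h replicate 1. S100a8, a calcium-binding protein abundant in neutrophils, measured 1804, 1860 and 472 FPKM against 1591, 2162 and 880, and varied more within the groups than between them.

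Ltc4s had the highest log2 fold change of the 17 leukotriene and prostaglandin synthesis genes tested. This gene, which encodes leukotriene C4 synthase, measured 18.7, 12.9 and 13.9 FPKM in Emo-6h and 6.91, 6.88 and 5.5 in SAP-6h (1.22 ± 0.28, adjusted p = 0.196), with 8.26 to 18.8 in Sham-6h. In DEX-6h vs SAP-6h, which uses the same SAP-6h rats, its value was 1.27 (adjusted p = 0.0285). Over the 17 genes tested, 2 were higher (7.59% of all genes) and 1 was lower (5.88%) at an unadjusted p under 0.05. The median of these synthesis genes was -0.11, which was 0.02 without Emo-6h replicate 3, -0.0027 without SAP-6h replicate 3 and -0.20 without Emo-6h replicate 2. Hpgds, the prostaglandin D synthase of haematopoietic cells, was not in this list. It measured 0.48, 0.34 and 0.38 FPKM in Emo-6h against 0.67, 2.24 and 1.9 (-1.99 ± 0.48, adjusted p = 0.199).

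Interferon-stimulated genes gave the highest median of the 57 lists, and that median rested on 1 rat. These genes are switched on by type I and type II interferons through STAT and IRF transcription factors and encode antiviral proteins. All 24 tested had a positive log2 fold change, 16 were higher at an unadjusted p under 0.05 (7.59% of all genes), and the median was 2.06 (0.97 on log2(FPKM + 1)). But in 1 gene only did the emodin rats all lie above SAP-6h, which held for 11.4% of all genes. Mx1, an antiviral GTPase, measured 3.69, 2.73 and 317 FPKM in Emo-6h and 4.35, 8.45 and 2.67 in SAP-6h (4.39 ± 1.53, adjusted p = 0.239). Irf7, the regulator of interferon-alpha genes, measured 40.8, 37.2 and 2136 FPKM against 43.5, 59.8 and 25.1 (4.12 ± 1.43, adjusted p = 0.236). Isg15, a ubiquitin-like modifier, measured 24.4, 18.5 and 545 FPKM against 27.4, 44.5 and 13.1. Replicates 1 and 2 of Emo-6h thus lay within the range of SAP-6h or near it, and replicate 3 was far above it.

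Summed over the list, FPKM came to 892, 702 and 7131 in Emo-6h, 935, 935 and 770 in SAP-6h and 582 to 789 in Sham-6h. The median by library, relative to the SAP-6h mean on the log2 scale, was -0.13, -0.27 and 3.48 in Emo-6h and -0.11, 0.43 and -0.36 in SAP-6h. Without Emo-6h replicate 3, 7 of the 24 genes were positive, 0 had an unadjusted p under 0.05 in either direction, and the median was -0.21. Without that library the log2 fold changes were -0.69 for Mx1, -0.14 for Irf7 and -0.41 for Isg15. Without SAP-6h replicate 1 or SAP-6h replicate 3, all 24 genes were positive and the count of 16 was 8. With only the libraries of the groups compared it was 7.

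Promoters of these genes carry interferon response elements, of which GAAANN followed directly by GAAA is a shortened form (N stands for any base). In the 250 bases before the start of each gene in the RefSeq promoter table (build GRCr8), 10 of the 16 tested list members with an entry held this motif on either strand (62.5%), against 3.41% of all 33469 promoters. Adjacent and overlapping matches were counted once per promoter. The 60 bases around the match nearest the start are shown, 5′ to 3′ on the gene's strand, for 4 members that were high in Emo-6h replicate 3, with the motif in capitals, which reads TTTCNN and then TTTC where it lies on the other strand. They are given to show what the members share besides their values, and a match is not evidence that a factor was bound in these lungs.
Irf7, chr1:205800058-205800117, minus strand: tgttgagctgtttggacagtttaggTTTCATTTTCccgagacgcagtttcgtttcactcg
Oas1a, chr12:41330406-41330465, plus strand: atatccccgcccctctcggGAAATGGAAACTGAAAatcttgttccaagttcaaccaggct
Gbp5, chr2:233910918-233910977, plus strand: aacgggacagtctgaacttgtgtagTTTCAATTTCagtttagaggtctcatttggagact
Gbp2, chr2:234005667-234005726, plus strand: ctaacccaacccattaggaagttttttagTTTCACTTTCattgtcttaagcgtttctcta
Oas1a, which makes the activator of RNase L, holds 2 overlapping matches and measured 16.8, 17.5 and 219 FPKM in Emo-6h and 17.4, 19.6 and 9.27 in SAP-6h. Gbp5, an interferon-induced GTPase, measured 5.86, 7.22 and 52.6 FPKM against 5.12, 8.47 and 4.53.

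**Figure D4:**
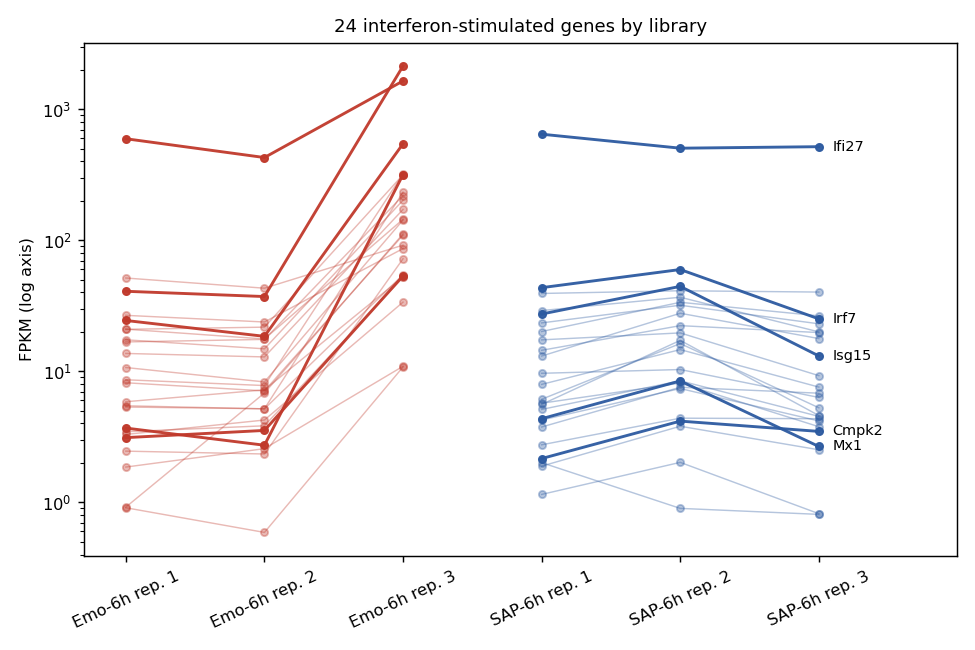
FPKM on a log axis of the 24 interferon-stimulated genes in each of the 6 libraries, where each line joins the values of 1 gene within a group. Emo-6h replicates 1 and 2 (red) cover the same range as the SAP-6h rats (blue), and the lines climb to Emo-6h replicate 3, where Irf7 reaches 2136 FPKM.

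Other immune lists had the same single high library. Cxcl10, the interferon-induced chemokine of T cells, measured 1.95, 1 and 268 FPKM in Emo-6h and 2.09, 1.63 and 1.25 in SAP-6h (adjusted p = 0.226, from 0.0297 with DESeq2 to 0.974 over the alternatives). C4b, a complement component, measured 19.8, 20.1 and 148 FPKM against 19.4, 17.8 and 22.9. Gzma, a granzyme of killer cells, measured 16.97, 12.9 and 118 FPKM against 14.2, 15.7 and 7.69. Natural killer and cytotoxic genes had a median of 1.15 with 8 of 8 positive, complement genes one of 0.37 with 17 of 22 positive, lymphocyte chemokines one of 0.42 and inflammasome genes one of 0.36. Without Emo-6h replicate 3 these medians were -0.08, -0.08, -0.25 and -0.10. The inflammasome median was 0.64 without Emo-6h replicate 2 and 0.56 without Emo-6h replicate 1. On log2(FPKM + 1) the medians were 0.59, 0.27, 0.13 and 0.18 in the same order. Casp1, the inflammatory caspase, measured 8.14, 8.68 and 37.7 FPKM against 15.1, 16.6 and 10.8, so that the first and second emodin rats lay below SAP-6h and the third above it. Genes of the 10 highest by the naming rule included Ddx60 (0.67, 0.75 and 6.53 FPKM against 0.35, 0.61 and 0.31), Uba7 (2.21, 2.45 and 23.9 against 1.71, 1.94 and 1.53) and Gzmm (28.3, 21.4 and 110 against 17.96, 16.95 and 15.2). In these 3 genes, too, most of the difference came from the third rat. The top of that ranking was formed by LOC680624 and AABR07051626.2, for which no read was counted in the 3 SAP-6h libraries, while the Emo-6h libraries held 96, 1 and 43 and 33, 72 and 22 reads.

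Immunoglobulin, B cell, platelet and red cell genes had negative medians in Emo-6h vs SAP-6h. Other blood cell lists had medians of both signs. Natural killer genes were at 1.15 and T cell genes at 0.15, with 6 of 10 positive. Neutrophil genes were at -0.15 and mast cell genes at -0.52. Without Emo-6h replicate 3 the medians were -0.08 for natural killer genes, -0.23 for T cell genes and 0.18 for neutrophil genes. Igh-1a, an immunoglobulin heavy chain gene, measured 64.4, 81.99 and 61.1 FPKM in Emo-6h, 568, 334 and 601 in SAP-6h and 95.1, 110 and 222 in Sham-6h. The groups did not overlap (-2.88 ± 0.85, adjusted p = 0.219, from 0.04995 with DESeq2 to 0.715 over the alternatives). Of the 7 tested genes whose symbols begin with Igh, Igk or Igl, 6 were negative, 5 lay below SAP-6h in all Emo-6h libraries, as did 6.48% of all genes, and the median was -2.21. On the contigs AABR07051 of chromosome 3, AABR07065 of chromosome 6 and AABR07060 of chromosome 4, 37 of 48, 45 of 55 and 13 of 17 tested genes were negative, with medians of -0.76, -1.13 and -1.31, and the files do not say what these genes encode. These groups were formed after the values had been seen. Ighv12-3, a heavy chain variable segment, was 1 of the 10 lowest genes by the naming rule and measured 0.09, 0.33 and 0.26 FPKM against 1.09, 1.77 and 4.4. Reads of such segments can be shared between near-identical copies.

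Plasma and B cell markers gave a median of -0.45 with 0 of 8 positive and none at an unadjusted p under 0.05. Their summed level was 115 to 127 FPKM in Emo-6h and 139 to 247 in SAP-6h. Platelet markers gave a median of -1.06 with 0 of 7 positive and 2 lower at an unadjusted p under 0.05 (5.88% of all genes). The median was -0.57 without SAP-6h replicate 3, and the count of 2 was 6 without SAP-6h replicate 1, 4 with only the libraries of the groups compared, 3 without Emo-6h replicate 3, and 1 without SAP-6h replicate 3 or Emo-6h replicate 2. Their sum was 72.8 to 150 FPKM in Emo-6h, 107 to 325 in SAP-6h and 46.1 to 115 in Sham-6h, so the groups overlapped. Tubb1, the platelet tubulin, measured 1.34, 0.97 and 1.32 FPKM against 1.86, 3.83 and 5.78, without overlap (-1.65 ± 0.53, adjusted p = 0.228), and Pf4, platelet factor 4, measured 81.3, 60.97 and 132 FPKM against 92.4, 180 and 279. Hba1, an alpha globin and the most abundant red cell gene, measured 5367, 5883 and 2263 FPKM in Emo-6h and 4408, 5750 and 7143 in SAP-6h, and overlapped (-0.37, interval -1.80 to 1.06, adjusted p = 0.846). Hbb, a beta globin, measured 1228, 1446 and 707 FPKM against 1819, 2330 and 2273 (-0.94, interval -2.62 to 0.74, adjusted p = 0.626). It was the only 1 of 6 red cell genes without overlap, and 6.48% of all genes lay below SAP-6h in all Emo-6h libraries. The red cell sum was 2990 to 7387 FPKM in Emo-6h, 6262 to 9501 in SAP-6h and 770 to 3643 in Sham-6h, and the median of the 6 genes was -0.59 with 0 positive. By library, the medians in Emo-6h were -1.02, -1.40 and -0.45 for platelets, -0.73, -0.50 and -1.23 for red cells and -2.03, -1.38 and -1.69 for the immunoglobulin symbols, in 3 different orders. In SAP-6h they were -0.91, 0.09 and 0.73 for platelets and -0.24, -0.05 and 0.41 for red cells. For the immunoglobulin symbols they were -0.30, -0.27 and 0.38 in SAP-6h, so all 3 sets there had the same order. The part of blood cells in the immunoglobulin values was not tested.

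MHC class II genes, which present antigen to helper T cells, had a median of -0.50 in 11 tested, with 5 having all Emo-6h libraries below all SAP-6h libraries (6.48% of all genes) and 2 lower at an unadjusted p under 0.05 (5.88% of all genes). The median was -0.31 without Emo-6h replicate 3 and -0.33 without SAP-6h replicate 1, and the count of 2 was 1 without SAP-6h replicate 2. RT1-Ba measured 91.5, 49.7 and 20.95 FPKM in Emo-6h, 110, 379 and 289 in SAP-6h and 26.01 to 77.2 in Sham-6h (-2.25 ± 0.67, adjusted p = 0.219), whereas Cd74, the chaperone of class II molecules, measured 1604, 1395 and 1103 FPKM against 1808, 1360 and 1685 and overlapped. The rat RT1 genes are polymorphic, and RT1-Ba varied over 3-fold within SAP-6h. The eosinophil peroxidase gene Epx measured 0.08, 0.02 and 0.1 FPKM in Emo-6h and 0.22, 2.73 and 3.5 in SAP-6h, and Itln1, a lectin, measured 1.16, 3.97 and 0 against 6.84, 70.5 and 18.6. Both were lowest by log2 fold change under the naming rule, at -4.95 and -4.22, and both were low in SAP-6h replicate 1 beside replicates 2 and 3 (adjusted p = 0.230 and 0.221). LOC299282, another of the 10 lowest, had the same order, with 1.5, 1.11 and 2.32 FPKM against 4.11, 25.3 and 14.6. Fabp4, the fatty acid carrier of fat cells and macrophages, measured 12.8, 47.9 and 24.5 FPKM against 47.4, 168 and 85.03 (-1.83 ± 0.61, adjusted p = 0.230). Mast cell genes were divided: Tpsab1, a tryptase, measured 7.77, 1.95 and 1.93 FPKM against 1.33, 0.6 and 1.82, while 4 of the 7 had negative values and the median was -0.52, and -0.21 without SAP-6h replicate 3.

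Genes of ciliated cells, whose beating clears the airways, had a median of -0.62 in 10 tested, with 5 lower (5.88% of all genes) and 0 higher (7.59%) at an unadjusted p under 0.05. None had all Emo-6h libraries above or all below the SAP-6h libraries, which held for 11.4% and 6.48% of all genes. The median lay between -0.93 without Emo-6h replicate 2 and -0.40 without SAP-6h replicate 2. The count of 5 was 9 without Emo-6h replicate 2 or SAP-6h replicate 1, 2 without Emo-6h replicate 1, Emo-6h replicate 3 or SAP-6h replicate 3 or with only the libraries of the groups compared, and 1 without SAP-6h replicate 2. Sntn, a protein of the ciliary tip, measured 3.46, 7.11 and 3.39 FPKM in Emo-6h and 5.07, 13.4 and 8.99 in SAP-6h, and Stoml3 measured 0.1, 0.24 and 0.07 against 0.18, 1.55 and 1.2. By library, the median was -0.70, -0.00 and -0.94 in Emo-6h and -0.72, 0.44 and 0.24 in SAP-6h, so SAP-6h replicate 1 lay with the emodin rats and Emo-6h replicate 2 lay with SAP-6h. Club and goblet genes, of the secretory airway cells, had a like order, with medians by library of -1.09, 0.23 and -0.93 in Emo-6h and -0.40, 0.23 and 0.30 in SAP-6h. Their median log2 fold change was -0.02 with 3 of 8 positive, and -1.26 without Emo-6h replicate 2. Bpifa1, a secreted protein of the upper airways, measured 0.33, 185 and 1.85 FPKM in Emo-6h and 0.52, 94.4 and 67.3 in SAP-6h. Heart muscle genes followed nearly that order of libraries. Myh6, a heart muscle myosin, measured 2.31, 10.4 and 0.36 FPKM against 0.06, 13.8 and 16.6. The 9 heart genes had a median of -1.23 with none at an unadjusted p under 0.05. That median was -2.88 without Emo-6h replicate 2 and -0.74 without Emo-6h replicate 3 or SAP-6h replicate 2. Of 5 pancreatic acinar genes tested, 4 were positive and 1 was higher at an unadjusted p under 0.05 (7.59% of all genes), with a median of 0.51, between 0.19 without Emo-6h replicate 1 and 0.82 without Emo-6h replicate 2 (0.11 on log2(FPKM + 1)). The higher gene was Ctrb1, a chymotrypsinogen, which measured 0.81, 5.53 and 6.3 FPKM in Emo-6h and 0.96, 0.28 and 0.17 in SAP-6h and overlapped (3.09 ± 1.11, adjusted p = 0.251). Prss2, a trypsinogen, measured 0.03 to 0.52 FPKM over the 6 libraries, and Cela1, at 9.91 to 17.01 FPKM, was the most abundant of the list.

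Targets of xenobiotic and oxidant sensors gave no common direction 4 hours after the dose. Cyp1a1, the classical target of the aryl hydrocarbon receptor, measured 8.04, 14.03 and 26.6 FPKM in Emo-6h, 11.8, 51.8 and 11 in SAP-6h and 3.09 to 7.28 in Sham-6h (-0.61, interval -2.53 to 1.32, adjusted p = 0.802). Its sign rested on SAP-6h replicate 2, without which the value was 0.48. Of 9 genes of this pathway, 3 were positive and 0 were at an unadjusted p under 0.05, and the median was -0.17. For these aryl hydrocarbon receptor targets it was -0.28 with 1 lower without Emo-6h replicate 2, -0.08 without Emo-6h replicate 1 and -0.04 without SAP-6h replicate 2. Of 20 antioxidant genes under NRF2, 2 were higher (7.59% of all genes) and 0 were lower (5.88%) at an unadjusted p under 0.05, with a median of 0.02, which lay between -0.03 without Emo-6h replicate 3 and 0.11 without Emo-6h replicate 2. Nqo1, a quinone reductase in both lists, measured 62.8, 60.5 and 70.6 FPKM against 47.8, 51.4 and 55.6, without overlap, and Hmox1, haem oxygenase 1, measured 83.1, 53.4 and 69.4 against 42.3, 77.7 and 61.6. The 15 drug-metabolizing cytochromes and conjugating enzymes had a median of 0.01, between -0.16 and 0.12 with each library left out, and 2 lower genes at an unadjusted p under 0.05 (5.88% of all genes), a count that was 0 without Emo-6h replicate 1 or SAP-6h replicate 1. Among 20 genes of hypoxia and glycolysis, 6 were higher (7.59% of all genes) and 3 were lower (5.88%) at an unadjusted p under 0.05, with a median of 0.13, which was 0.02 without Emo-6h replicate 3, 0.05 without SAP-6h replicate 3 and 0.08 without SAP-6h replicate 2. The higher ones were the glycolytic genes Aldoa, Eno1, Pkm, Hk1, Gapdh and Pfkl, at 0.26 to 0.41, and the lower ones were Bnip3, Pdk1 and Ndrg1, at -0.59 to -0.34. The counts were 1 and 2 without Emo-6h replicate 3, 0 and 1 without SAP-6h replicate 2, 3 and 0 without Emo-6h replicate 1, 6 and 1 without Emo-6h replicate 2, and 4 and 1 without SAP-6h replicate 1.

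**Figure D5:**
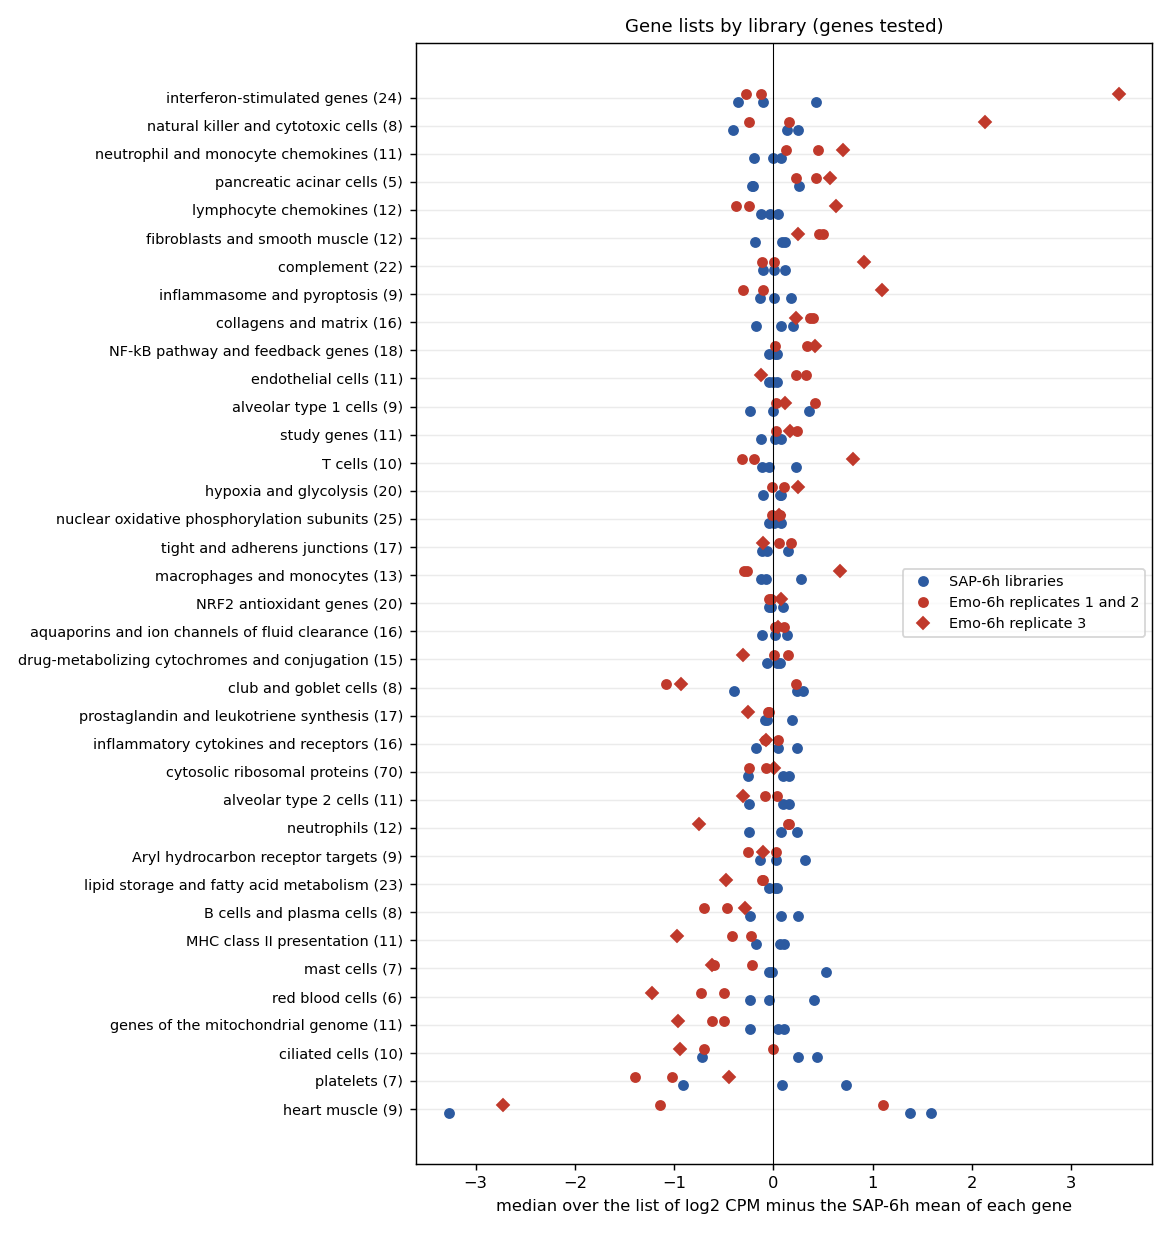
For 37 gene lists (number of genes tested in brackets), each point is the median over the list, in 1 library, of log2 CPM (counts scaled to library size) minus the SAP-6h mean of each gene. Points of SAP-6h are blue and of Emo-6h red, with its replicate 3 as diamonds. Emo-6h replicate 3 is far to the right for interferon-stimulated genes at 3.48 and for natural killer genes at 2.13, whereas for mitochondrial genes all 3 Emo-6h points lie left of the SAP-6h points.

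A further list held genes that the study's text names, some from earlier work on emodin and some from its own results, and it does not cover all genes the study followed. Of 11 tested, 7 were positive, and Tbx2 and Nfkb1, whose values are given above, were higher at an unadjusted p under 0.05 (7.59% of all genes). The median was 0.20, and the count of 2 was 3 without Emo-6h replicate 2 and 1 without any other of the 6 libraries. Cdkn1a, a cell cycle inhibitor, measured 135, 87.99 and 152 FPKM in Emo-6h and 131, 85.7 and 119 in SAP-6h (0.15, interval -0.78 to 1.08), and Nrp1, a co-receptor of vascular growth factors, measured 13.5, 18.2 and 12.5 against 8.08, 15.5 and 12.3, with 20.5 to 23.7 in Sham-6h (0.29, interval -0.22 to 0.80). The lincRNA AABR07062477.2 measured 2.23, 2.99 and 1.09 FPKM against 2.08, 2.66 and 1.84 (-0.08, interval -1.05 to 0.88). The intervals leave room for 2-fold changes of Cdkn1a and AABR07062477.2 but not of Nrp1.

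The same contrast at 24 hours, after 2 doses, was set against that at 6 hours by the interaction term of the model. For 268 of 15934 genes (1.68%) the emodin effect differed between the times at an adjusted p under 0.05 and by at least 2-fold. All 4 down-regulated DEGs were among them, but they were chosen by their 6 h values, which the interaction contains, so this is a description and not a further test. Their log2 fold changes in Emo-24h vs SAP-24h were -0.31 for AABR07027451.1, 0.65 for AABR07032348.2, 0.67 for Ly6g6c and 0.45 for Rpl32, none with an adjusted p under 0.05. For Tbx2 and Kdr the direction was shared, at 1.06 (adjusted p = 0.0112) and 0.87 (adjusted p = 0.0236) at 24 hours. The number of interactions depended on single libraries, and it was 1 without SAP-6h replicate 2, 3 without Emo-6h replicate 1, 47 without Emo-6h replicate 3, 23 without Emo-24h replicate 2, 67 without Emo-24h replicate 1, 161 without SAP-24h replicate 1, 467 without SAP-6h replicate 1 and 605 without Emo-6h replicate 2.

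Beside the changes of SAP-6h vs Sham-6h and DEX-6h vs SAP-6h, which share the SAP-6h rats, the DEGs took different courses. AABR07032348.2 and the Rpl32 row were level between SAP-6h and Sham-6h (0.11 and 0.18) and lower in Emo-6h than in Sham-6h (-2.94, adjusted p = 0.00724, and -1.14, adjusted p = 0.0150). Ly6g6c was higher in SAP-6h than in Sham-6h and its value in Emo-6h vs Sham-6h was -0.36 (adjusted p = 0.534). AABR07027451.1 was at 2.31 in SAP-6h vs Sham-6h (adjusted p = 0.113) and at -1.78 in Emo-6h vs Sham-6h (adjusted p = 0.103). In DEX-6h vs SAP-6h the values were -0.34, -0.63, -1.21 and -1.57 for AABR07032348.2, Rpl32, Ly6g6c and AABR07027451.1, none with an adjusted p under 0.05, and that of Mt-co2 was -0.58.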

How the data were processed

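Polyadenylated rat lung RNA of 30 samples, 3 in each of 10 groups, was sequenced from directional libraries as paired reads. The authors clipped the reads with the FASTX-Toolkit, mapped them with TopHat2 (2 mismatches) to rat_ensembl_v6 and discarded multi-mapped reads. The authors deposited counts of uniquely mapped reads for 22914 genes, without normalization, and FPKM rounded to 2 decimals for 22907 of them. The counting program is not given in the sources used here.

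Counts were analysed with edgeR 4.0.16 in R 4.3.3: filterByExpr (minimum count 10, total 15), TMM scaling, and the quasi-likelihood test in a fit of 10 group means to all 30 libraries, with p-values adjusted over 15934 genes by Benjamini-Hochberg. Standard errors and 95% intervals come from the same test. FPKM served for levels. Medians by library used log2 CPM with a prior count of 2. Steps were tested on simulated data. DESeq2 1.42.0, RLE factors, limma 3.58.1 on log2(FPKM + 1) and log2(FPKM + 0.1), other filters, sample sets and call rules, a replicate block and each library left out were alternatives.

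The comparison, the 57 gene lists (ribosomal proteins by symbol, the others written out) and the alternatives were chosen with earlier results of these data known. Counts at an unadjusted p under each alternative, and gene counts per list, were added after seeing the data. Named genes were the DEGs, 10 highest and 10 lowest changes among genes of at least 1 FPKM at an unadjusted p under 0.05 whose groups did not overlap, 3 genes of smallest p and the most abundant gene per list, a list of genes named in the study's text, and 3 lncRNAs. Hpgds, Igh-1a, Myh6, Mx1, Isg15, Gbp2, Gbp5, Actg2, Cyp1a1, Hmox1, Dcn, Lum, Eln, Hk1, Gapdh, Pkm, Bnip3, Ndrg1, Mt-nd6, Bpifa1 and Ctrb1 were picked after their values had been seen. Of symbols with several rows, the row with the highest mean FPKM was used for a list. In the lists, 46 genes were not matched and 35 were matched but too low to be tested. By the study's methods the lungs of 3 of 6 rats per group were sequenced, so p-values measure the spread between animals. Reads on genes ranged from 16813949 to 34692306 in the 6 libraries compared.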

Additional observations from a re-analysis of the deposited data

Results flagged for a closer look

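The emodin effect (log2 fold change of Emo vs SAP) differed between 24 and 6 hours by the interaction term of the edgeR model for 13 of the genes named above. Each value is the effect at 24 hours minus that at 6 hours, with its adjusted p. For the DEGs it was 1.77 for the Rpl32 row on chromosome 6 (adjusted p = 0.0160), 3.77 for AABR07027451.1 (adjusted p = 0.0295), 3.70 for AABR07032348.2 (adjusted p = 0.0135) and 2.44 for Ly6g6c (adjusted p = 0.0135).

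Among genes that were on the low side at 6 hours, it was 1.13 for Mt-nd4 (adjusted p = 0.0411), 1.28 for Rps4x (adjusted p = 0.0135), 3.05 for Hpgds (adjusted p = 0.0230), 5.61 for Stoml3 (adjusted p = 0.0213), 1.70 for Sntn (adjusted p = 0.0383) and 3.44 for RT1-Ba (adjusted p = 0.0434). Among genes on the high side at 6 hours it was negative, at -3.18 for Cxcl1 (adjusted p = 0.0411), -1.24 for Nfkbib (adjusted p = 0.0218) and -8.79 for Il6 (adjusted p = 0.0326), which measured at most 1.03 FPKM in the Emo-6h and SAP-6h rats. These genes were named for their values at 6 hours, which the difference contains, so the opposite signs of the low and high genes follow in part from that choice. Single libraries decide the number of such genes over all genes tested, as given with the comparison of the times.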

How the results depend on the processing

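Under the call rule of an unadjusted p under 0.05 with at least 2-fold, 182 genes were higher and 272 lower, and the genes whose emodin effect differed between 24 h and 6 h numbered 1399. DESeq2 called 3 higher and 591 between the times, where an adjusted p with no fold limit gave 569. With only the libraries of the groups compared, 0 genes were called lower and 2 differed between the times. With the 15 libraries at 6 h 0 were lower, and with the 18 taurocholate libraries 0 were lower and 10 differed between the times. Without a filter 2 were lower, and among genes of at least 1 FPKM 164 differed between the times. The cause of these differences was not tested.

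With each library left out in turn, the genes called higher numbered 0 to 2, those called lower 0 to 6 and those that differed between the times 1 to 605. There were 640 to 1515 genes higher in Emo-6h at an unadjusted p under 0.05, and 466 to 1129 genes lower in Emo-6h at an unadjusted p under 0.05. The lowest of these counts, 640 and 466, came without SAP-6h replicate 2, and 554 were lower without Emo-6h replicate 1. The log2 fold change crossed 0 when libraries were left out for Mx1 (-0.69 to 4.98), Irf7 (-0.14 to 4.69), Isg15 (-0.41 to 3.35), Cxcl10 (-0.20 to 6.34), C4b (-0.020 to 2.09), Cyp1a1 (-1.16 to 0.48), Casp1 (-0.76 to 0.71), Cdkn1a (-0.025 to 0.37), Cldn5 (-0.19 to 0.23) and AABR07062477.2 (-0.39 to 0.23). On log2(FPKM + 0.1), Casp1 was at -0.0025 and Cldn5 at 0.0074, and on log2(FPKM + 1) Cldn5 was at 0.0074. Of 57 genes, 47 kept their direction in every alternative run. Of 532 medians, of gene lists and of all genes, 511 moved by less than the pooled standard deviation of the library medians in Emo-6h and SAP-6h. A library that stands apart widens that limit, so this count does not show that the medians were stable. Medians that changed sign were counted as unmoved for neutrophil genes (-0.15 to 0.18) and T cell genes (0.15 to -0.23). The median over all genes stayed between -0.0146 and 0.0105.

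Replicate numbers are shared by the groups, but the labels do not tie same-numbered rats together, and the correlations of their deviations from the group means were 0.17, 0.20 and -0.076. Replicates 1 and 2 of Emo-6h correlated best with their own number in SAP-6h. Their values with the other numbers were -0.17 and -0.040 for replicate 1 and -0.27 and 0.12 for replicate 2. Replicate 3 of Emo-6h did not correlate best with its own number, and its highest value was 0.10, with SAP-6h replicate 1. With the replicate block 0 genes were higher and the same 4 lower, and 222 differed between the times.

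The limits include 3 rats a group, 1 library that stood apart, and Emo-6h replicate 2 and SAP-6h replicate 1, which correlated better with the other group than with their own. The dose of emodin is given at 2 values, the rows of Rpl32 and Rps4x can share reads with copies, and low genes such as Il6 rest on few reads.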
